A study of Saccharomyces cerevisiae with 4 samples.

Results

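The genes described here build the peroxisome of budding yeast, Saccharomyces cerevisiae, or run fatty acid beta-oxidation inside it. The list holds 39 genes, chosen by name: 24 peroxins (PEX genes), 8 oxidation and auxiliary enzymes, 3 transporters of the peroxisomal membrane, 2 genes of the carnitine shuttle and the 2 oleate regulators. Each of the 39 is read by 1 probe set, out of 5449 yeast genes on the array, and 37 of them were bright enough to be tested. In this yeast the peroxisome is the only place of fatty acid beta-oxidation. Enzymes are imported folded from the cytosol, and oleate in the medium induces both the enzymes and the organelle, whereas glucose represses them. The enzyme genes are switched on by a dimer of Oaf1 and Pip2 that binds oleate response elements, together with the activator Adr1.

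Messenger RNA was compared between untreated cultures of X2180, a laboratory strain of the S288C lineage, and NBRC1950, a strain named for a Japanese culture collection. There were 2 Affymetrix Yeast Genome 2.0 arrays of each. Both strains grew with shaking in YPD, a rich medium with glucose as carbon source, so the cells were not placed on fatty acids. The labels give no growth phase, cell density, ploidy or genotype for either strain. The design text calls the duplicates independent, without saying whether the cultures or only the later steps were separate.

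The deposited intensities were scaled so that the median yeast probe set read 973.6 on every array; the medians before scaling ran from 894 to 1171. Values below are these scaled signals, and differences are log2 values, NBRC1950 minus X2180, so that a positive value means a higher signal in NBRC1950. The background limit of an array is the 90th percentile of the probe sets that name no yeast gene, and it lay between 14.88 and 18.2. A gene was called at a limma p-value under 0.05 after Benjamini-Hochberg adjustment over all tested probe sets. As signs of RNA integrity, log2 ratios of 3' over 5' signal of 8 control messenger transcripts did not move together: in NBRC1950 2 lay above both X2180 arrays (SRB4, at 2.66 and 2.83 against 2.05 and 2.18, and ACT1, at 0.33 and 0.31 against 0.20 and 0.26), 2 lay below them and 4 overlapped. On a second set of control probes SRB4 overlapped and ACT1 was again above; the part of these ratios in the results was not tested. Probes that mismatch NBRC1950 were not masked, so that a sequence difference and a difference in transcript level cannot be told apart.

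The pathway did not move one way. Of the 37 tested genes, 7 were higher and 9 lower in NBRC1950 and 21 were not called. That is a called share of 43.2%, against 47.2% of all 5316 tested genes (20.4% higher, 26.8% lower). The median difference was 0.05 over the list and -0.05 over all genes. Differences of at least 0.5 that were also called were seen for 7 genes of the list, while 22.6% of all genes had one: OAF1 and PIP2 were higher, and PEX21, PXA1, PEX6, PEX32 and PEX22 were lower. The arrays of the strains did not overlap for 24 of the 37, against 75.7% of all genes. The arrays read RNA of whole cultures, so fewer cells with a transcript and less of it per cell cannot be told apart.

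**Figure D1:**
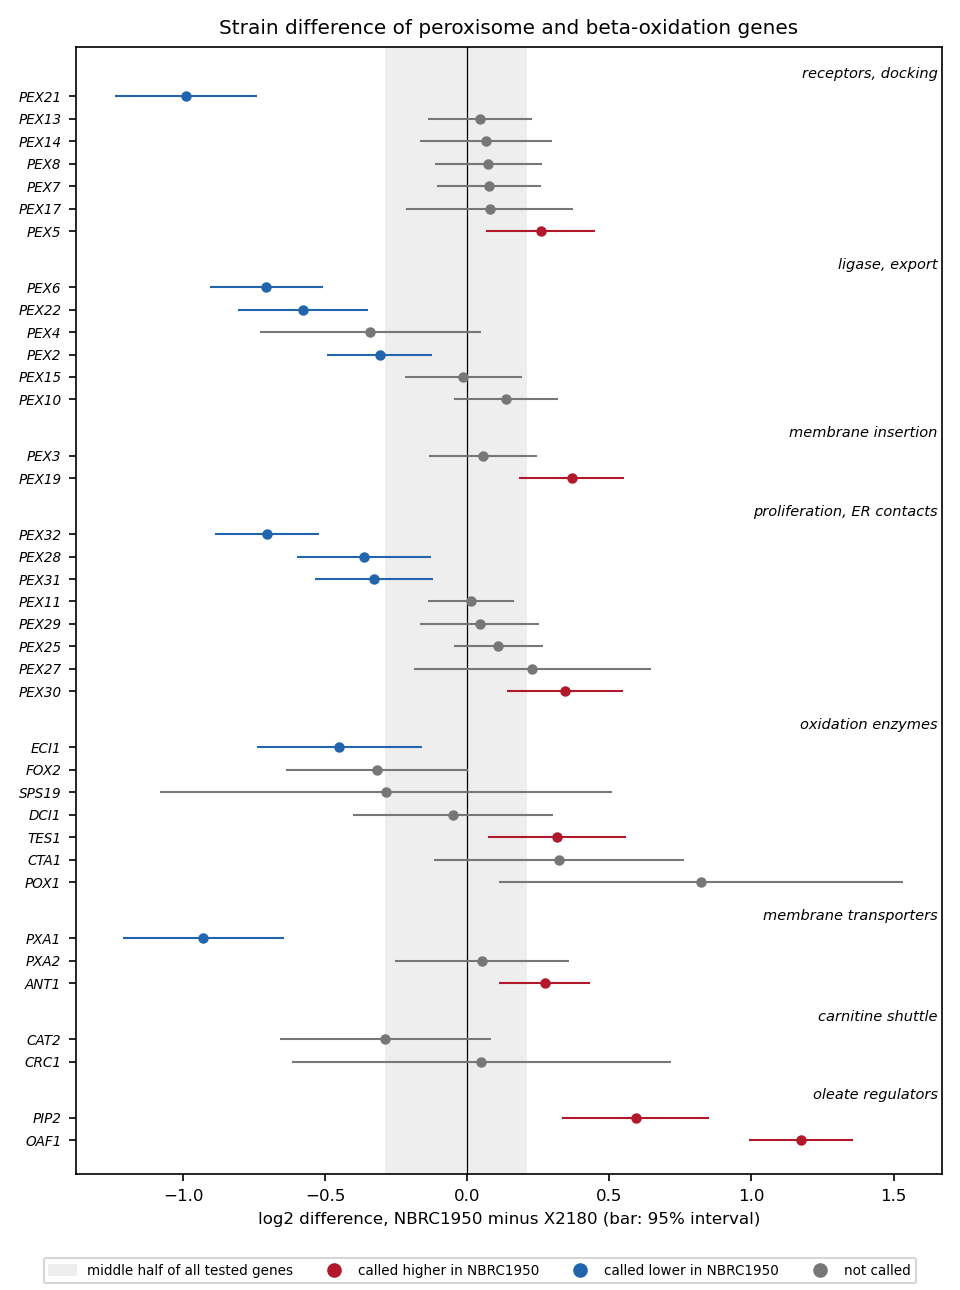
Log2 difference (NBRC1950 minus X2180, x axis) of the 37 tested genes, grouped by role, with 95% intervals from limma (n = 2 arrays in each strain); red and blue points were called higher and lower, and the grey band holds the middle 50% of all tested genes, from -0.29 to 0.20. OAF1 (1.18) and PIP2 (0.59) lie to the right, and PEX21 (-0.99), PXA1 (-0.93), PEX6 (-0.71), PEX32 (-0.70) and PEX22 (-0.58) to the left. When arrays were scaled to all probe sets, the signs of PEX2, PEX28, PEX31 and ECI1 turned.

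Both oleate regulators were higher in NBRC1950. OAF1 (YAL051W), which encodes the subunit that binds the fatty acid, read 467 and 457 in X2180 and 1061 and 1026 in NBRC1950. The strains were well apart, and the 2 arrays of each strain were nearly equal. The difference was 1.18 ± 0.08 (SE; limma adjusted p = 2.8e-05), or 2.26-fold. PIP2 (YOR363C), its partner, read 249 and 277 in X2180 and 378 and 415 in NBRC1950. Again every NBRC1950 array lay above both X2180 arrays, with a difference of 0.59 ± 0.11 (SE; limma adjusted p = 0.00393). OAF1 kept its call under every alternative processing tried, and PIP2 lost it only in the methods' t-test after adjustment.

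OAF1 lies on chromosome I, whose 84 tested genes had a median difference of 0.38, the highest of the 16 nuclear chromosomes. The genes on either side of it were higher as well: FLC2 by 0.70 and AIM2 by 1.06 (limma adjusted p = 0.000468 and 2.6e-05), both looked at only because they flank it. PEX22 (YAL055W), whose locus name places it near OAF1 (YAL051W) on the same chromosome arm, was lower (-0.58). Its neighbours GPB2 and ACS1 were at -0.39 and -0.04. PIP2 lies on chromosome XV, with a median of -0.06, and its neighbours PRE10 (-0.07) and YOR365C (-0.49) were not called. Whether gene copies or regulation set the signal of OAF1 was not tested.

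The activity of the Oaf1-Pip2 dimer, which is known to activate the genes of beta-oxidation, was not measured. Most of the enzymes of beta-oxidation were not called. Of the 7 tested, 1 was higher, 1 was lower and 5 were not called, a called share of 28.57% against 47.2% of all genes. Their median of -0.05 became 0.50 when all probe sets set the scale (median gene 0.50), 0.16 without further scaling (median gene 0.16) and 0.28 with quantile normalization (median gene 0.02). POX1 (YGL205W), the acyl-CoA oxidase of the first step, read 18.9 and 21.5 in X2180 and 29.6 and 43 in NBRC1950. The X2180 values lay only just above the background limits of 18.2 and 15.92. Its difference of 0.82 ± 0.30 (SE; limma adjusted p = 0.0587) did not pass, with a 95% interval of 0.11 to 1.53. It did pass in 7 of the 14 alternatives that tested it, with differences from 0.82 to 1.53 there.

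FOX2 (YKR009C), the multifunctional enzyme of the steps that follow, read 367 and 385 in X2180 and 265 and 343 in NBRC1950. The arrays did not overlap, but the 2 NBRC1950 arrays lay far apart, and the difference of -0.32 ± 0.14 (SE; limma adjusted p = 0.0939) did not pass. It passed as lower without NBRC1950 replicate 2 (-0.50) and with the replicate number as a block. POT1 (YIL160C), the thiolase of the last step, read 10 and 8.4 in X2180 and 11.4 and 11.2 in NBRC1950, below the background limit on all 4 arrays, and was not tested. CTA1 (YDR256C), the peroxisomal catalase that removes the hydrogen peroxide made by Pox1, read 74.8 and 75.9 in X2180 and 83 and 107 in NBRC1950. Both NBRC1950 values were above both X2180 values, at a difference of 0.32 that was not called (95% interval -0.12 to 0.76). It was called higher with quantile normalization (0.78; limma adjusted p = 0.0108) and with scaling to all probe sets (0.87).

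The auxiliary enzymes, which deal with unsaturated fatty acids or release acyl groups, were split. ECI1 (YLR284C), the enoyl-CoA isomerase, read 479 and 588 in X2180 and 367 and 412 in NBRC1950, a difference of -0.45 (limma adjusted p = 0.0203) that turned to 0.10 with scaling to all probe sets. It was no longer called when X2180 replicate 2 (limma adjusted p = 0.103) or NBRC1950 replicate 1 (0.0881) was left out. TES1 (YJR019C), the acyl-CoA thioesterase, read 277 and 258 against 336 and 329, which is higher by 0.32 (limma adjusted p = 0.0394). That call needed 3 of the 4 arrays: it went without X2180 replicate 2 (0.110) and without either NBRC1950 array (0.180 for replicate 1, 0.144 for replicate 2). DCI1 (YOR180C), a paralogue of ECI1, overlapped between the strains, with 111 and 127 in X2180 and 116 and 114 in NBRC1950. SPS19 (YNL202W), the 2,4-dienoyl-CoA reductase, rested on X2180 arrays that disagreed: 117 and 53.5, with 64.6 and 65 in NBRC1950. Neither was called (-0.05 and -0.29), and with 1 array left out SPS19 ranged from -0.85 to 0.28 and passed as lower without X2180 replicate 2.

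**Figure D2:**
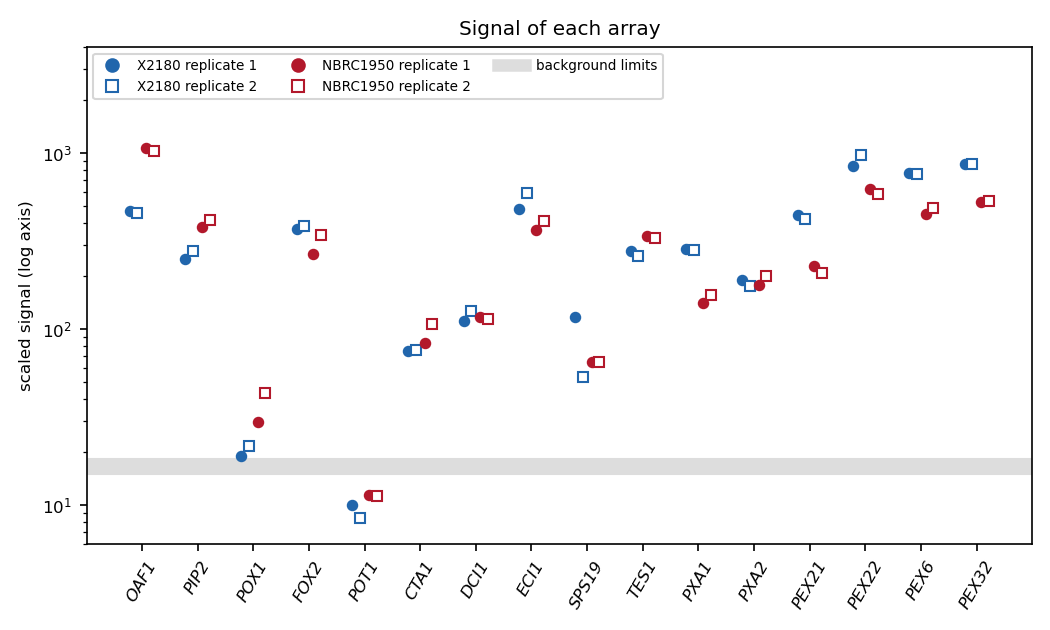
Scaled signal on each of the 4 arrays (log axis) for the regulators, the oxidation enzymes, the fatty acid transporter subunits and the peroxins with a called difference of at least 0.5; blue is X2180, red NBRC1950, filled circles replicate 1, open squares replicate 2, and the grey band spans the background limits of 14.88 to 18.2. The red points of OAF1 stand at 1026 and 1061, above blue points at 457 and 467, while POT1 lies below the band on every array.

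The ABC transporter that carries activated long-chain fatty acids into the peroxisome is made of Pxa1 and Pxa2. The signals of their genes differed unequally. PXA1 (YPL147W) read 285 and 279 in X2180 and 141 and 156 in NBRC1950. Its signal fell by 0.93 ± 0.12 on the log2 scale (SE; limma adjusted p = 0.000717), or 1.91-fold, with no overlap between strains. PXA2 (YKL188C) read 190 and 174 in X2180 and 178 and 200 in NBRC1950, so the strains overlapped, and its difference of 0.05 was not called (95% interval -0.25 to 0.36). Taken within each array, where the scaling cancels, PXA1 relative to PXA2 stood at -0.97 and -0.99 on the NBRC1950 arrays against the X2180 mean, and at -0.05 and 0.05 on the X2180 arrays. This pair was among several set side by side with their values known. Of these pairs, only PEX4 relative to PEX22 overlapped between the strains. Among single genes 75.7% did not overlap, and the share among pairs of any genes was not computed. The largest gap among the listed pairs was 1.25, for PEX5 relative to PEX21. An exact two-sided permutation test of 2 against 2 arrays cannot give a p below 0.333.

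ANT1 (YPR128C), which brings ATP into the peroxisome for the activation of medium-chain fatty acids, read 1638 and 1550 in X2180 and 1889 and 1958 in NBRC1950. It was higher by 0.27 (limma adjusted p = 0.0141), a call lost without NBRC1950 replicate 2 (0.0893). In the carnitine shuttle, which passes acetyl units from peroxisome to mitochondrion, neither gene was called. CAT2, the carnitine acetyltransferase, read 277 and 209 against 207 and 188 (-0.29), and passed as lower only without X2180 replicate 2 (-0.49). CRC1, the carrier of the mitochondrial inner membrane, read 45.2 and 47.2 against 36.8 and 62.1 (0.05), with both X2180 values between those of NBRC1950. Its difference was 0.73 with quantile normalization, not called (limma adjusted p = 0.0543), and 0.60 with scaling to all probe sets, where it was called (0.0321).

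Among the receptors and docking factors that import matrix proteins, 1 gene was lower, 1 was higher and 5 were not called (28.57% called, against 47.2% of all genes). PEX21 (YGR239C), a co-receptor of Pex7 for proteins with the amino-terminal targeting signal, read 443 and 423 in X2180 and 229 and 208 in NBRC1950. The groups did not overlap, and the signal fell by 0.99 ± 0.11 on the log2 scale (SE; limma adjusted p = 0.0003), or 1.98-fold. PEX18 (YHR160C), the paralogue that serves the same receptor, read 11.1 and 8.54 in X2180 and 0.72 and 14 in NBRC1950, below the background limit on every array, and was not tested. PEX7 itself was at 0.08 and not called (95% interval -0.11 to 0.26).

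PEX5 (YDR244W), the receptor for the carboxy-terminal signal that most matrix enzymes carry, read 552 and 531 in X2180 and 649 and 646 in NBRC1950. It was higher by 0.26 (limma adjusted p = 0.0352). This call did not hold with any 1 array left out, where the adjusted p ran from 0.0531 to 0.159. The docking factors PEX13, PEX14 and PEX17 and the linking factor PEX8 were between 0.04 and 0.08 and none was called. Their signals overlapped between the strains in all 4 cases. The 95% interval of PEX13 ran from -0.14 to 0.23, and that of PEX17, the dimmest, from -0.22 to 0.37.

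The machinery that ubiquitinates used receptors and pulls them back to the cytosol had 3 members lower, 0 higher and 3 not called (50% called, close to the 47.2% of all genes), with a median difference of -0.33 that became 0.22 under the scaling to all probe sets. PEX6 (YNL329C), an ATPase that extracts the receptor, read 766 and 759 in X2180 and 450 and 484 in NBRC1950, lower by 1.63-fold (-0.71 ± 0.09, SE; limma adjusted p = 0.000494). PEX15, its membrane anchor, read 490 and 511 against 484 and 507 and was at -0.01 (95% interval -0.22 to 0.19). PEX22 (YAL055W), the membrane anchor of the ubiquitin-conjugating enzyme Pex4, read 840 and 975 in X2180 and 626 and 586 in NBRC1950. Its signal was lower on every NBRC1950 array, at -0.58 ± 0.10 (SE; limma adjusted p = 0.00239).

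PEX4 pointed the same way, with 162 and 130 against 122 and 107, but its -0.34 ± 0.17 (SE; limma adjusted p = 0.131) did not pass. Of the RING proteins of the ligase, PEX2 read 811 and 773 against 632 and 647. It was called lower at -0.31 (limma adjusted p = 0.0155), a sign that turned to 0.24 with scaling to all probe sets, and the call did not hold without X2180 replicate 1 (0.056) or without either NBRC1950 array (0.0865 for replicate 1, 0.0606 for replicate 2). PEX10 was at 0.14 and not called. The genes called lower here thus include an ATPase, an anchor and a ligase subunit, whereas PEX15 and PEX10 of the same assemblies had smaller or opposite values. In the scaling to all probe sets, PEX6 (-0.16) and PEX22 (-0.03) stayed below 0 without a call.

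Of the pair that inserts membrane proteins, PEX19 (YDL065C), the cytosolic chaperone and import receptor of peroxisomal membrane proteins, was higher. It read 981 and 1081 in X2180 and 1358 and 1300 in NBRC1950, a difference of 0.37 ± 0.08 (SE; limma adjusted p = 0.00725). PEX3, its docking site in the membrane, read 824 and 798 against 807 and 881, overlapped between the strains and was at 0.06.

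The factors that set the size, number and membrane contacts of peroxisomes had 1 member higher, 3 lower and 4 not called. That is again 50% called, against 47.2% of all genes. The calls lay among proteins of the endoplasmic reticulum that act at contacts with peroxisomes. PEX32 (YBR168W) read 860 and 864 in X2180 and 523 and 534 in NBRC1950, lower by 1.63-fold (-0.70 ± 0.08, SE; limma adjusted p = 0.000342). PEX30 (YLR324W), a relative of it, read 553 and 510 against 662 and 687 and was higher by 0.35 (limma adjusted p = 0.0144). PEX31, a further relative, read 731 and 661 against 558 and 549 and was called lower at -0.33, and PEX28 read 344 and 353 against 266 and 276 and was called lower at -0.36, but both turned positive, to 0.22 and 0.18, with scaling to all probe sets.

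These 3 smaller calls each depended on certain arrays. PEX30 lost its call without X2180 replicate 2 (limma adjusted p = 0.0562) or NBRC1950 replicate 2 (0.0893). PEX31 lost it without X2180 replicate 1 (0.0711) or either NBRC1950 array (0.0622 and 0.0851 for replicates 1 and 2). PEX28 lost it without X2180 replicate 2 (0.0631) or either NBRC1950 array (0.119 and 0.0747). PEX29, which acts with Pex28, was at 0.04 and not called. Within each array, PEX30 relative to PEX32 stood 1.04 and 1.06 above the X2180 mean in NBRC1950, against 0.06 and -0.06 in X2180, again a pair chosen with its values known.

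PEX11, which remodels and elongates the membrane during division and is strongly induced by oleate, differed little. It read 1929 and 1970 in X2180 and 1936 and 1998 in NBRC1950, overlapping, with a difference of 0.01 and a 95% interval of -0.14 to 0.16. Its relatives PEX25 (0.11) and PEX27 (0.23) were not called either, and the X2180 arrays read 254 and 181 for PEX27.

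The choice of scaling moved the calls for the list as it moved those for all genes. When all probe sets, background included, set the scale, the median gene stood at 0.50 and the median of the list at 0.60. Then 24 of the 37 were called higher and 2, PEX21 and PXA1, lower, while 80.7% of all genes were called. With no further scaling these medians were 0.16 and 0.26, with 5 higher and 2 lower, against 24.6% called of all genes. PEX2, PEX22, PEX6, PEX28, PEX31, PEX32 and ECI1 were not called under either of these scalings (PEX32 at -0.16 and -0.50). With no further scaling PEX5, TES1 and ANT1 lost their calls as well. With quantile normalization 9 were higher and 9 lower, against 46.7% called of all genes. Of the 16 genes called under the main scaling, 12 had the same sign under all 4 scalings. Relative to the median gene 3 of the scalings are the same by construction, and with quantile normalization all 16 kept the sign they had there.

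**Figure D3:**
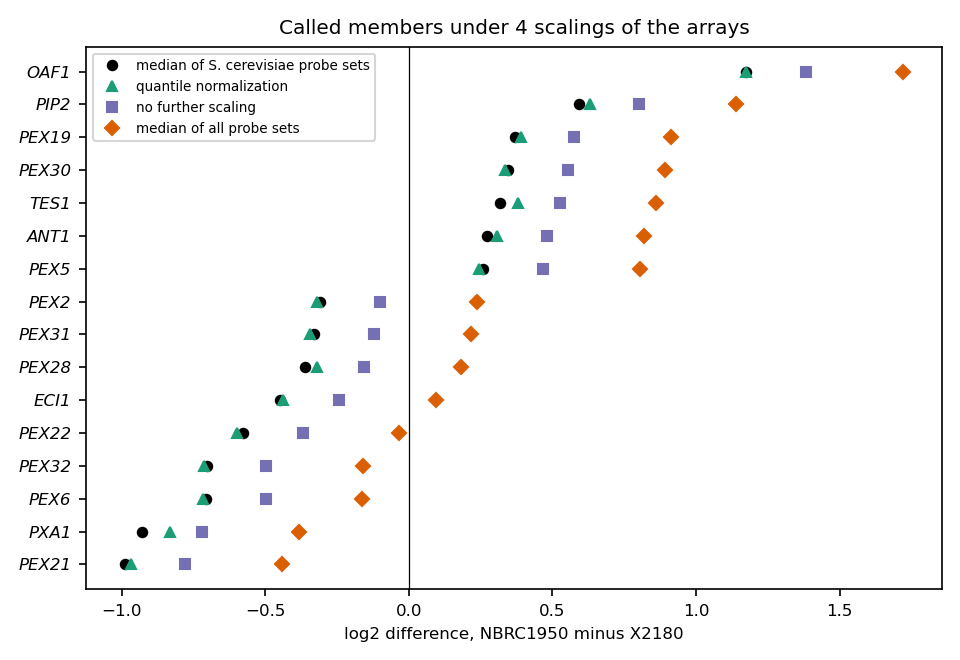
Log2 difference (NBRC1950 minus X2180, x axis) of the 16 called genes under 4 scalings of the arrays, drawn as black circles (median of S. cerevisiae probe sets), green triangles (quantile), purple squares (none) and orange diamonds (all probe sets). OAF1 lies between 1.17 and 1.72 and PEX21 between -0.99 and -0.44, while PEX2, PEX28, PEX31 and ECI1 lie on both sides of 0.

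Some genes of oxidation, and CRC1 of the carnitine shuttle, also differed between the 2 NBRC1950 arrays. Replicate 2 read above replicate 1 by 0.75 (log2) for CRC1, 0.54 for POX1, 0.37 for FOX2 and 0.37 for CTA1, whereas in X2180 the same gap was 0.06, 0.19, 0.07 and 0.02. Over all tested genes, 5% lay below -0.22 and 5% above 0.29 in NBRC1950. The other 4 tested enzymes were inside that range, with ECI1 at 0.17, SPS19 at 0.01 and TES1 and DCI1 both at -0.03. CAT2, the other shuttle gene, was also inside it at -0.14, while its X2180 gap was -0.41. CRC1, POX1 and CTA1 are dim, and among the 331 genes with a mean signal under 100 the 95th percentile was 0.90, above all of them. FOX2 lay beyond the 95th percentile of 0.29 of the 2289 genes between 100 and 1000. No peroxin had a gap above 0.23 in NBRC1950, while in X2180 PEX27 stood at -0.49 and PEX4 at -0.31. These gaps enter the spread against which the strain difference of each enzyme was tested.

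**Figure D4:**
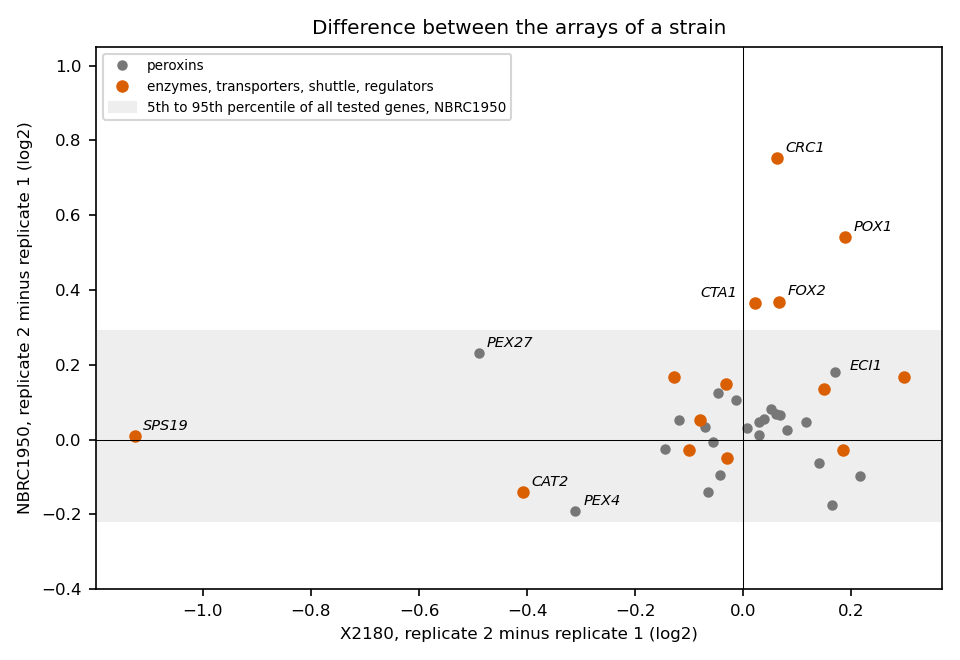
Log2 difference between the 2 arrays of a strain, X2180 on the x axis and NBRC1950 on the y axis, for the 37 tested genes; grey points are peroxins, orange points the other genes, and the grey band holds the 5th to 95th percentile of all tested genes in NBRC1950 (-0.22 to 0.29). CRC1, POX1, FOX2 and CTA1 lie above the band, and SPS19 stands apart in X2180 at -1.13.

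Further genes of the organelle and its fuel supply were counted in 6 lists. Of other peroxins and peroxisome factors, 3 were analysed here and 1 was higher (33.33% called, against 47.2% of all genes). It was PEX34, which promotes division, at 0.21 (limma adjusted p = 0.0363). Its call went without X2180 replicate 1 or either NBRC1950 array. The call also went without a trend in the fit (limma adjusted p = 0.0716) and with no further scaling (0.121). Of 10 genes of division, inheritance and turnover, 2 were higher and 3 lower (50% called, against 47.2% of all genes). With scaling to all probe sets these became 8 and 1, against 80.7% called of all genes. CAF4, an adaptor of the fission machinery shared with mitochondria, was at -1.24 and ATG36, the receptor that marks peroxisomes for degradation, at -0.76. ATG36 was not called with scaling to all probe sets (-0.22; limma adjusted p = 0.252) or with no further scaling (-0.56; 0.0850). DNM1, a dynamin of fission, was higher by 0.48 and MYO2, the motor that carries peroxisomes to the bud, by 0.30, the last not called without NBRC1950 replicate 1 (0.0905) or with no further scaling (0.0545).

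Of 14 further matrix enzymes measured, 4 were higher and 8 lower, a called share of 85.71% against 47.2% of all genes. With scaling to all probe sets 7 were called higher and 1 lower, against 80.7% called of all genes, and 5 of the 8 turned positive. MLS1, the malate synthase of the glyoxylate cycle, which uses the acetyl-CoA made by beta-oxidation, read 21.1 and 29.3 in X2180 and 75.6 and 207 in NBRC1950. It was higher by 2.33 ± 0.44 (SE; limma adjusted p = 0.0041), ranging from 1.61 to 3.06 with 1 array left out, and the gap between its NBRC1950 arrays was 1.45. LYS1, a lysine synthesis enzyme located in peroxisomes, was at -1.88. GPD1, a glycerol-3-phosphate dehydrogenase, was higher by 0.74, and PNC1, the nicotinamidase imported with it, by 0.52. PCS60, an acyl-CoA synthetase-like protein, was at -0.51, or 0.04 when scaled to all probe sets.

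Of 7 genes of fatty acid activation and uptake, 1 was higher and 4 lower, a called share of 71.43% against 47.2% of all genes (20.4% higher, 26.8% lower). With scaling to all probe sets 4 were called higher and 2 lower, against 80.7% called of all genes. Of the 4 lower under the main scaling, 2 turned positive, PCS60 among them. FAA1, the main long-chain acyl-CoA synthetase, read 4952 and 5795 in X2180 and 1761 and 1786 in NBRC1950, a difference of -1.60 ± 0.09 (SE; limma adjusted p = 9.79e-06). FAT1, which acts in fatty acid uptake and activates very long chains, was at -1.03, and FAA3, another synthetase, was higher by 0.31.

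Of 10 regulators of glucose repression and the oleate response, 3 were higher and 2 lower (50% called, against 47.2% of all genes). With scaling to all probe sets these became 6 and 1, against 80.7% called of all genes. HAP4, the activating subunit of the respiratory Hap complex, was higher by 0.83 and MIG1, the main glucose repressor, by 0.50. MIG2, a related repressor, was at -1.09. OAF3, a negative regulator of oleate-responsive genes, was at -0.44, or 0.11 when scaled to all probe sets. ADR1, the activator that works beside Oaf1 and Pip2, was at 0.36 and not called, with 58.8 and 62 against 83.5 and 72.2.

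Of the 4 genes for other carnitine acetyltransferases and carnitine uptake, 1 was lower (25% called, against 47.2% of all genes). With scaling to all probe sets 3 were higher and 1 lower, against 80.7% called of all genes. The gene lower in both was AGP2, a plasma membrane regulator of carnitine transport, at 42.1 and 48 against 13.5 and 25, with 1 of the NBRC1950 arrays below its background limit. Its difference of -1.29 lost its call without either X2180 array (limma adjusted p = 0.0663 and 0.0977) or without NBRC1950 replicate 1 (0.0658), and stood at -0.85 without NBRC1950 replicate 1. It was -0.59 and not called with quantile normalization (limma adjusted p = 0.196).

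**Figure D5:**
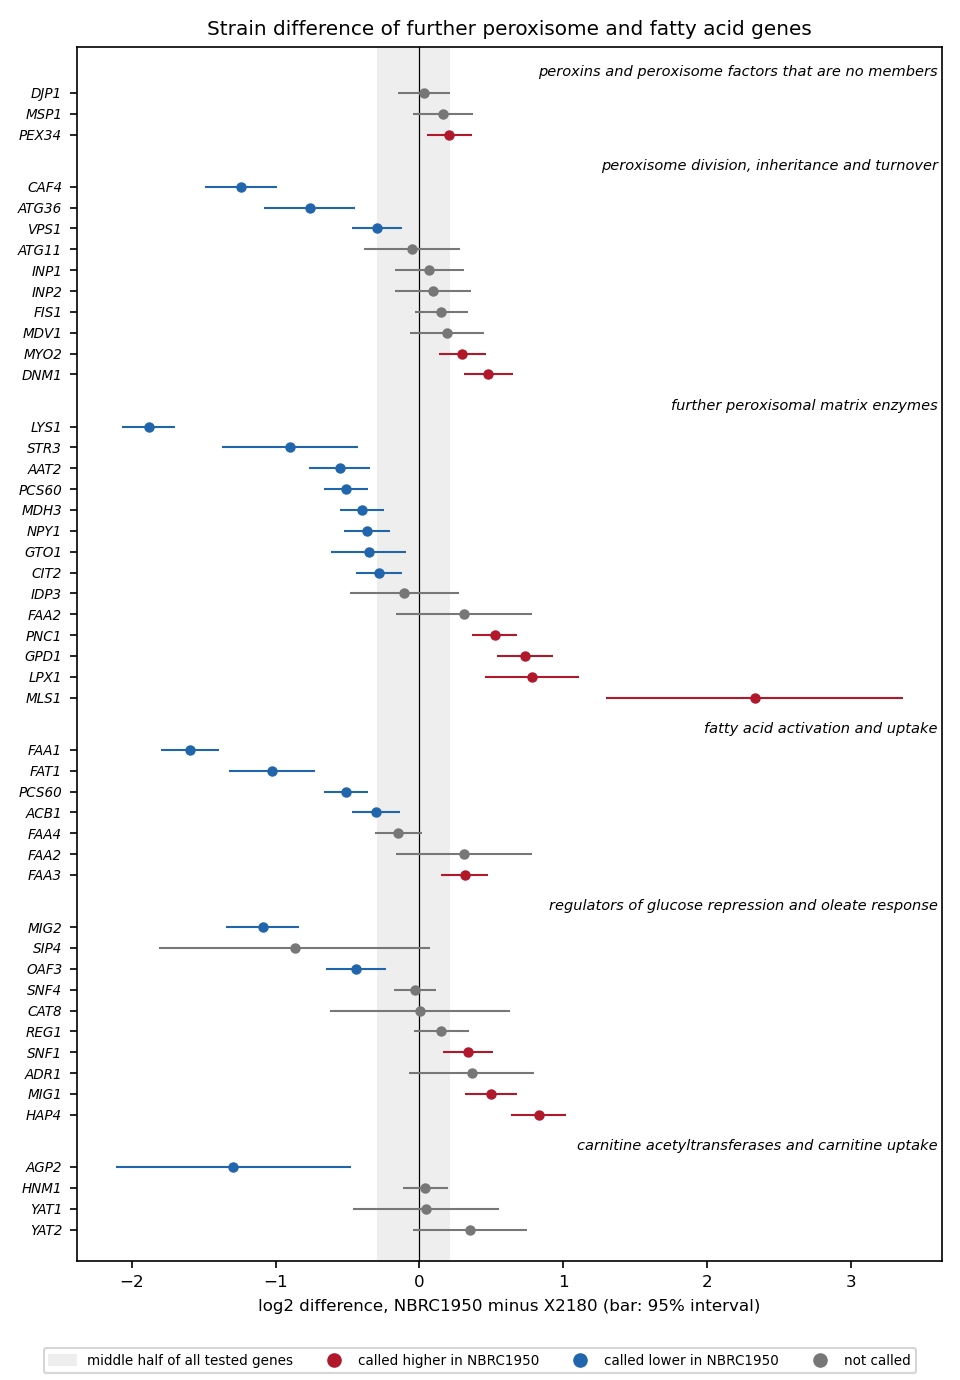
Log2 difference (NBRC1950 minus X2180, x axis) with 95% intervals from limma for the 46 tested genes of the 6 further lists (FAA2 and PCS60 stand in 2 of them); colours and the grey band are as in the plot of the 37 genes. MLS1 (2.33) lies farthest to the right and LYS1 (-1.88) and FAA1 (-1.60) farthest to the left, and the calls of VPS1, MDH3, CIT2, NPY1, PCS60, GTO1, ACB1 and OAF3 as lower changed sign with scaling to all probe sets.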

How the data were processed

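The authors deposited linear intensity values, 1 for each probe set on each array. The submitters' processing notes name GCOS alone; any scaling or probe masking by it is not stated in these sources. Per the labels' protocols, poly(A) RNA was used. The design text describes per-array and per-gene normalization, neither of which was visible in the deposited intensity values, and a t-test, which was run here as an alternative. Of 10928 probe sets, 5498 named 1 yeast gene through the array annotation and the R64 gene table, 213 were controls and 5217 served as background. Arrays were scaled to the median of the yeast probe sets, floored at the median background of 4.567 and taken as log2. Probe sets with a geometric mean above 16.35, the 90th background percentile, were tested with limma 3.58.1 in R 4.3.3 (lmFit, eBayes with trend, no covariates), which left 5358. Each gene had 2 residual degrees of freedom, with a prior of 5.415, and the number of arrays limits precision. Genes, lists and roles were chosen with earlier results of these data known, so nothing here is independent support for patterns already seen. Every gene of the list is named; of the further lists, called genes with a difference of at least 1 and otherwise the 4 called genes of smallest adjusted p, while VPS1, MDH3, CIT2, NPY1, GTO1, ACB1, FAA2, ADR1, the neighbours of OAF1, PIP2 and PEX22, and the other pairs were added after their values were seen. Alternatives covered scaling, floor, filter, trend, the methods' t-test, the replicate number as a block and leaving out each array.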

Additional observations from a re-analysis of the deposited data

How the results depend on the processing

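The counts of called genes depended on the scaling and on the test. With scaling to all probe sets, 3968 genes were higher and 321 lower (1083 and 1426 under the main scaling), 24 and 2 of the list, whose median was 0.60. With no further scaling, 383 genes and 2 of the list were lower, and the list median was 0.26. The methods' t-test called 8 of the list higher and 8 lower at an unadjusted threshold of 0.05 (885 and 1186 of all genes), and after Benjamini-Hochberg 1 and 1, OAF1 and PEX32 (218 and 311 of all genes). Leaving out 1 array gave 3 to 6 higher and 5 to 9 lower genes of the list. The 8 calls of PEX21, PEX22, PEX6, PEX19, PEX32, PXA1, OAF1 and PIP2 held in each such fit. The other calls did not hold in every such fit. Each such fit also had fewer arrays, and the cause of the lost calls was not tested. Signs turned with scaling to all probe sets for PEX2 (0.24), PEX4 (0.20), PEX15 (0.53), PEX28 (0.18), PEX31 (0.22), FOX2 (0.23), DCI1 (0.50), ECI1 (0.10), SPS19 (0.26), CAT2 (0.26), PCS60 (0.035) and OAF3 (0.11), with no further scaling for PEX15 (0.19) and DCI1 (0.16), and with quantile normalization for DCI1 (0.28) and SPS19 (0.22). With 1 array left out, genes that were not called took either sign: PEX14 (-0.021 to 0.15), PEX17 (-0.012 to 0.17), PEX11 (-0.010 to 0.035), SPS19 (-0.85 to 0.28), PEX15 (-0.049 to 0.020), PEX27 (-0.016 to 0.47), DCI1 (-0.14 to 0.042), PXA2 (-0.032 to 0.14), PEX13 (-0.0031 to 0.092), PEX3 (-0.0068 to 0.12) and CRC1 (-0.33 to 0.43), and the list median ranged from -0.010 to 0.076. Floor, filter and trend changed no call of the list except that of POX1. Whether same-numbered arrays shared more than a number cannot be settled from 2 arrays of each strain. Their deviations correlated at 0.06 across 5316 genes. With the replicate block 7 of the list were higher and 10 lower, FOX2 being added, against 50.2% called of all genes. Signals near background limit what can be said of POX1, POT1 and PEX18.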
